A study of Mus musculus with 14 samples.

Results

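The antiviral genes that type I interferon switches on were followed in liver RNA of 14 TALLYHO mice. The 38 genes, out of 55487 in the count table, were taken by name from textbook families of interferon-stimulated genes. They were chosen with earlier results of these data known, and each name matched exactly 1 row of the table. TALLYHO is an inbred strain that develops obesity and type 2 diabetes on a polygenic background, and all mice were male and aged 8 to 12 weeks. The vehicle group (7 mice: G1, G4, G6, G9, G10, G11 and G13) received water by oral gavage and the indole group (7 mice: G2, G3, G5, G7, G8, G12 and G14) received 20 mg/kg indole, with 2 doses per day over 7 days. Both groups then went through the same metabolic tests, with further doses of their own treatment in between, before the right liver lobe was taken. The mice carried no transgene, and no healthy strain was sequenced beside them.

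Type I interferons bind a receptor made of IFNAR1 and IFNAR2, whose kinases TYK2 and JAK1 phosphorylate STAT2. A complex that holds STAT2 and IRF9 moves to the nucleus and binds a short DNA element, the interferon-stimulated response element (ISRE), in front of the antiviral genes. Interferon gamma uses another receptor and acts through a different element, the gamma-activated site (GAS), although many genes answer to both. In liver, hepatocytes and Kupffer cells (the resident macrophages) both carry the type I receptor.

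The ISRE core, searched on both strands as GAAA, any 2 bases and GAAA again, was present in part of these genes. RefSeq promoter windows on GRCm38.p6, from 250 bases before to 50 bases after the annotated start, were given for 29 of the 38 genes. The core was present in 13 of the 29, or 44.8%, against 3.99% of the 27025 genes with a window (3.44% of 32851 windows). *Oas2*, *Dhx58*, *Zbp1*, *Usp18*, *Parp9*, *Parp14*, *Mx2*, *Rtp4* and *Ifi27* had no entry. In 10 genes a core lay wholly before the start, and those stretches are printed here to show the element in its place. In *Ddx58*, *Ifih1* and *Eif2ak2* the core lay just after the start. The GAS, searched as TTCNNNGAA, was present in 5 of the 29, against 9.55% of all genes with a window.

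Each stretch reads 5′ to 3′ on the strand of its gene, with every base of a core in capitals and positions counted back from the start, so that −1 is the last base before it. Cores on the opposite strand read TTTC, any 2 bases and TTTC.
Ifit1: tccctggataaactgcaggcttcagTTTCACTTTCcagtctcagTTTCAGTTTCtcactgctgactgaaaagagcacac
Ifit3: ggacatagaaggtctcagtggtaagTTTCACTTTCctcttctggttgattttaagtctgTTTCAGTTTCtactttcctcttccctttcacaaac
Ifit3b: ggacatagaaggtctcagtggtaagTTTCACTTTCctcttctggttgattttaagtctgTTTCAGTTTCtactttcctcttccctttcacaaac
Oas1a: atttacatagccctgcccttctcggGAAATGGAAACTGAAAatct
Oas1g: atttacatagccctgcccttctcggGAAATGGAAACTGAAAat
Oas3: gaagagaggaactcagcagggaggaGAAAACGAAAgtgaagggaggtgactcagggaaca
Stat2: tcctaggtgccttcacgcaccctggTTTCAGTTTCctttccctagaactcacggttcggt
Isg15: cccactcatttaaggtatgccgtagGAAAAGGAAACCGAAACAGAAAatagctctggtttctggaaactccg
Rsad2: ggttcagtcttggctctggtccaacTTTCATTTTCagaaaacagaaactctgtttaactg
Bst2: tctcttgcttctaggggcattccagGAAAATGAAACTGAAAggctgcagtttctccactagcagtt

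The *Ifit1* stretch is chr19:34640760-34640838 on the plus strand, with cores that begin at −104 and −85. Those of *Ifit3* (chr19:34583348-34583441, plus strand) and *Ifit3b* (chr19:34607744-34607837, plus strand) are the same over all 94 bases, but lie at different distances from their starts, with cores from −156 and −122 in *Ifit3* and from −188 and −154 in *Ifit3b*. *Oas1a* (chr5:120907526-120907570, minus strand) and *Oas1g* (chr5:120887614-120887656, minus strand) share 43 bases, including 2 overlapping cores directly at the start. *Isg15* (chr4:156200850-156200921, minus strand) holds 3 overlapping cores from −78, and *Bst2* (chr8:71537562-71537627, minus strand) holds 2 from −130. The single cores are those of *Oas3* (chr5:120777700-120777759, minus strand), *Stat2* (chr10:128270251-128270310, plus strand) and *Rsad2* (chr12:26456538-26456597, minus strand). A match describes these letters only, and binding was not measured.

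The libraries held 15390922 to 21060376 counted reads in the vehicle group and 15197498 to 18464326 in the indole group. Levels are CPM, read counts relative to library size, after scaling by trimmed mean of M values (TMM), and p-values measure the spread between these mice. Enough reads for the edgeR test were present for 34 of the 38 genes, among 12653 of all genes. *Oas1g*, *Oas2*, *Oas3* and *Ifi47* were too low, with at most 32 reads in any mouse. No 2 libraries of a group were alike within sampling noise. All 10 hepatocyte markers passed the filter and summed to 77459 to 112257 CPM in every mouse, as the tissue label implies.

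The mice G8 and G11 stood apart on the interferon genes, and they belong to different groups. Indole-treated mouse G8 had the highest level of all 14 mice in 27 of the 38 genes (over the 12653 genes tested, G8 was highest in 9.18%), and vehicle-treated mouse G11 in 9 of the 38 (5.66% of all genes tested). The other 2, *Stat2* and *Trim25*, were highest in vehicle-treated mouse G13. In 32 of the 38, G8 and G11 together held the top 2 places, which was so for 2.39% of all genes tested. Since these mice are named in the choice of the genes, the counts describe the libraries and test nothing.

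The summed level of the 38 genes was 1277 CPM in G8 and 1034 CPM in G11, while the other 12 mice lay between 471.7 and 594.0 CPM. On the log2(CPM + 1) scale, the median gene lay 1.36 above the median of the 6 remaining indole mice in G8 and 0.93 above that of the 6 remaining vehicle mice in G11. The same figure was between −0.18 and 0.11 in each of the other 12 mice. All 38 genes had a log2 ratio above 0 to that median in G8 and 37 in G11, with *Ifi47* as the exception. A log2 ratio over 1 was reached by 25 genes in G8 (1.65% of all genes tested) and by 15 in G11 (0.474% of all genes tested). The median over all genes tested was −0.01 in G8 and −0.00 in G11. The reads on mitochondrial genes (5.57% in G8 and 4.43% in G11) lay within and below the 4.90% to 6.04% of the other 12 mice.

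**Figure D1:**
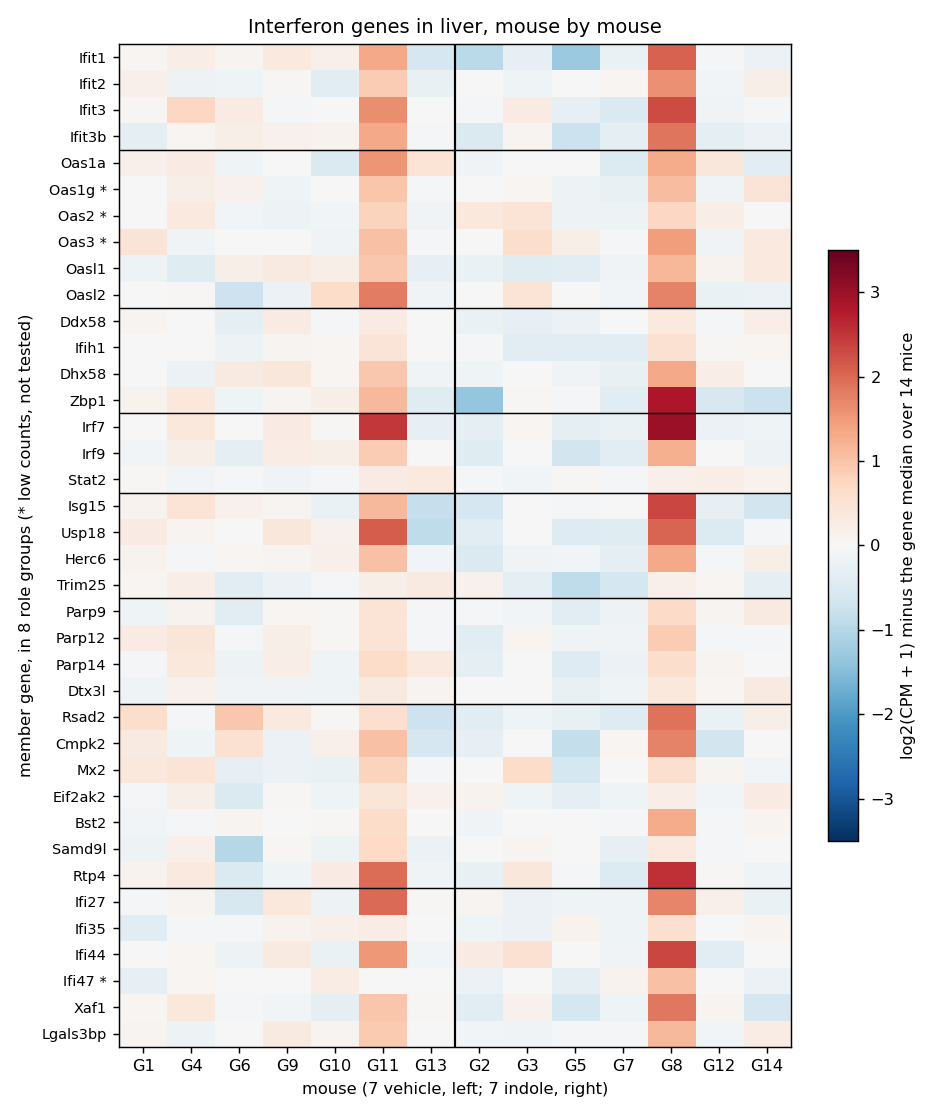
Heat map of the 38 genes (rows, in 8 role groups separated by lines) in the 14 mice (columns, vehicle left and indole right), coloured by log2(CPM + 1) minus the gene's median over the 14 mice. The columns of G11 and G8 are red in nearly every row, and the rows of *Stat2*, *Trim25*, *Ddx58* and *Dtx3l* are pale in all mice.

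The IFIT proteins bind viral RNA that lacks the cap structure of host mRNA. *Ifit3*, the most abundant of the 4 in CPM, was at 30.5 CPM in G8 and 19.2 CPM in G11. The other 6 indole-treated mice lay between 3.62 and 7.01 CPM (median 5.12) and the other 6 vehicle-treated mice between 5.32 and 9.71 CPM (median 5.65). The ranges of the 12 mice overlapped, and both standout mice were far above them. With all mice, the log2 fold change of indole against vehicle was 0.06 (SE 0.531), and without G8 and G11 it was −0.34 (SE 0.182). *Ifit1* was at 17.2 CPM in G8 and 10.1 CPM in G11. Its other 6 indole-treated mice lay between 0.786 and 3.21 CPM (median 2.64) and the other 6 vehicle-treated mice between 1.94 and 4.54 CPM (median 3.80). All 6 of these indole-treated mice were below the vehicle median, with G5 at 0.786 and G2 at 1.26 CPM the lowest. Its log2 fold change went from −0.08 (SE 0.612) with all mice to −0.70 (SE 0.282) without G8 and G11. *Ifit3b* followed *Ifit3*, with 9.62 CPM in G8, 6.31 CPM in G11, 0.720 to 2.14 CPM in the remaining indole mice and 1.34 to 2.33 CPM in the remaining vehicle mice. *Ifit3* and *Ifit3b* are near-identical copies 19238 bases apart on chromosome 19, so reads that fit both were lost from the uniquely mapped reads. *Ifit2* differed from the rest in that none of the 6 indole-treated mice was below the vehicle median, at 1.55 to 2.23 CPM against 1.15 to 2.16 CPM, with 7.47 CPM in G8 and 4.15 CPM in G11.

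The OAS family makes the second messenger that activates RNase L, which cuts viral and cellular RNA. *Oasl1*, a relative that lacks this enzyme activity, was the most abundant, at 17.6 CPM in G8, 15.2 CPM in G11, 5.25 to 9.55 CPM in the remaining indole mice and 5.27 to 9.42 CPM in the remaining vehicle mice. Here the 12 mice overlapped almost completely (log2 fold change −0.11, SE 0.178, without G8 and G11). *Oasl2* was nearly level between the standout mice, at 7.33 CPM in G8 and 7.64 CPM in G11, against 0.534 to 2.91 CPM in the other 12. The family summed to 32.5 CPM in G8 and 30.2 CPM in G11, against 7.79 to 12.2 CPM in the other 12 mice, and G11 was the highest mouse for *Oas1a* (3.71 CPM against 2.96 CPM in G8), *Oas2* and *Oasl2*. *Oas2* had 13 reads in G8, 17 in G11 and 0 to 11 in the other 12 mice. *Oas1a* and *Oas1g* are related neighbours, 8642 bases apart on chromosome 5. How alike their transcripts are was not measured, so any loss of shared reads is uncertain.

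The sensors of foreign nucleic acid ranged widely in G8, from a log2 ratio of 0.49 for *Ddx58* to 3.31 for *Zbp1*. *Ddx58*, which encodes RIG-I, a sensor of short double-stranded RNA, was at 26.6 CPM in G8 and 25.7 CPM in G11, next to 16.3 to 25.6 CPM in the other 12 mice. *Ifih1*, which encodes MDA5, a sensor of long double-stranded RNA, was the most abundant of the 4, at 39.1 CPM in G8 and 36.4 CPM in G11. Its other 6 indole-treated mice lay between 19.8 and 28.0 CPM (median 23) and the other 6 vehicle-treated mice between 23.3 and 28.2 CPM (median 26.5). *Zbp1*, a sensor of Z-form nucleic acid that can trigger cell death, had the highest ratio of all members in G8. It was at 29.9 CPM there, 8.47 CPM in G11, 0.683 to 3.43 CPM in the 6 remaining indole mice (median 2.12) and 2.23 to 4.56 CPM in the other 6 vehicle-treated mice (median 3.64). All 6 of these indole-treated mice were below the vehicle median. The log2 fold change of *Zbp1* was 0.53 (SE 0.754) with all mice and −0.67 (SE 0.290) without G8 and G11. *Dhx58*, which encodes the regulatory sensor LGP2, was at 17.9 CPM in G8 and 13.5 CPM in G11, against 5.32 to 8.93 CPM in the other 12.

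Among the transcription factors, *Irf7*, the factor that amplifies interferon production, and *Stat2*, a constant part of the signalling complex, were opposites. *Irf7* was at 109.6 CPM in G8 and 74.2 CPM in G11, while the other 6 indole-treated mice lay between 9.72 and 13.3 CPM (median 10.7) and the other 6 vehicle-treated mice between 10.2 and 16.5 CPM (median 13). On the log2(CPM + 1) scale no other member was as high in G11 relative to its group, with a log2 ratio of 2.43, while as a plain ratio to the median (5.71) *Irf7* was below the scarcer *Ifi44* (6.81), *Oas1g*, *Oas2* and *Oas3*. The log2 fold change of *Irf7* was 0.16 (SE 0.727) with all mice and −0.30 (SE 0.122) without G8 and G11. *Stat2* was at 43.2 CPM in G8 and 46.7 CPM in G11, within the 34.8 to 48.2 CPM of the other 12 mice, and its log2 fold change was 0.02 (SE 0.0901) without G8 and G11. *Irf9*, the DNA-binding partner of STAT2, lay between these, at 42.6 CPM in G8 and 32.7 CPM in G11. Its other 6 indole-treated mice ran from 10.7 to 17.4 CPM (median 13.9), all below the vehicle median of 18.6 CPM (range 13.3 to 20.8). The log2 fold change of *Irf9* was −0.13 (SE 0.304) with all mice and −0.33 (SE 0.131) without G8 and G11.

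ISG15 is a ubiquitin-like protein that HERC6 attaches to other proteins in mice and USP18 removes. *Isg15* was at 19.4 CPM in G8 and 7.86 CPM in G11, against 1.58 to 3.10 CPM in the remaining indole mice (median 2.63) and 1.33 to 4.61 CPM in the remaining vehicle mice (median 3.36). *Usp18*, which also blocks the type I receptor, was instead slightly higher in G11 (18.1 CPM) than in G8 (17 CPM). Its other 6 indole-treated mice lay between 2.14 and 3.37 CPM and the other 6 vehicle-treated mice between 1.37 and 4.83 CPM. The low vehicle value is that of G13, below all 6 of these indole-treated mice, so the indole range lay inside the vehicle range. The log2 fold change of *Usp18* was −0.30 (SE 0.641) with all mice and −0.46 (SE 0.243) without G8 and G11. *Herc6* was at 20.7 CPM in G8 and 16.8 CPM in G11, against 5.10 to 9.02 CPM in the remaining indole mice and 7.2 to 8.95 CPM in the remaining vehicle mice. *Trim25*, a ubiquitin ligase that activates RIG-I, was raised less, with log2 ratios of 0.53 in G8 and 0.21 in G11. It was at 46.8 CPM in G8 and 47.7 CPM in G11, within the 21.8 to 51.7 CPM of the other 12. Its log2 fold change was −0.26 (SE 0.164) with all mice, −0.34 (SE 0.159) without G8 and −0.31 (SE 0.167) without G8 and G11. Only the fit without G8 gave it an unadjusted p below 0.05 by edgeR.

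The poly-ADP-ribose polymerases of this set and the ubiquitin ligase DTX3L, the partner of PARP9, were well expressed in every mouse and moved least in G8 (median log2 ratio 0.73) and in G11 (0.46) among the role groups. *Parp9* was at 62.2 CPM in G8, 54.4 CPM in G11 and 28.9 to 48.2 CPM in the other 12 mice. *Parp12*, which restricts RNA viruses, was at 54.6 CPM in G8 and 40.6 CPM in G11. Its other 6 indole-treated mice lay between 22.3 and 30.9 CPM (median 26.9), all below the vehicle median of 31.7 CPM (range 27.3 to 38.8). *Parp12* had a log2 fold change of −0.11 (SE 0.169) with all mice and −0.26 (SE 0.1) without G8 and G11. *Parp14* was alike in this, with 26.2 CPM in G8, 26.9 CPM in G11, 12.1 to 18 CPM in the remaining indole mice and 14.9 to 22.3 CPM in the remaining vehicle mice, and log2 fold changes of −0.23 (SE 0.165) and −0.27 (SE 0.126). *Dtx3l* was at 45.3 CPM in G8, 43.3 CPM in G11 and 28.7 to 43.0 CPM in the other 12. *Parp9* and *Dtx3l* overlap by 682 bases on opposite strands, and whether the counting used strand is not given in the sources used here, although the libraries were stranded.

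Of the other antiviral effectors, *Bst2* (tetherin, which holds budding virus at the cell surface) was the most abundant of all 38 genes, also per kilobase of gene length. It was at 225.7 CPM in G8 and 144.6 CPM in G11, and the other 12 mice were held between 84.0 and 98.9 CPM. Its log2 fold change was 0.15 (SE 0.224) with all mice and −0.01 (SE 0.0695) without G8 and G11. *Rtp4*, an inhibitor of flaviviruses, was at 25.4 CPM in G8 and 16.6 CPM in G11 against 2.20 to 4.98 CPM in the other 12, the highest ratio of this role group in both mice. *Rsad2* (viperin, which makes a chain-terminating nucleotide) separated the standout mice, at 14 CPM in G8 but 4.98 CPM in G11, within the 1.42 to 6.60 CPM of the other vehicle-treated mice. The other 6 indole-treated mice were at 1.92 to 3.57 CPM. Its head-to-head neighbour *Cmpk2*, a nucleotide kinase 12751 bases away on chromosome 12 that feeds viperin, was at 8.07 CPM in G8 and 4.49 CPM in G11, against 0.524 to 2.93 CPM in the other 12. Without G8 and G11 the log2 fold change was −0.63 (SE 0.281) for *Rsad2* and −0.48 (SE 0.337) for *Cmpk2*. *Mx2*, annotated in the table as a polymorphic pseudogene, *Eif2ak2*, which encodes the translation blocker PKR, and *Samd9l* were all higher in G11 than in G8, at 7.92, 13.4 and 8.86 CPM in G11 and 6.59, 11.5 and 6.73 CPM in G8. For *Mx2* and *Eif2ak2* the value of G8 lay within the range of the other 12 mice.

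The remaining interferon-induced genes followed the same division. *Ifi27*, a mitochondrial protein gene, was higher in G11 (141.5 CPM) than in G8 (118.2 CPM), and the other 12 mice lay between 23.5 and 45.7 CPM. *Lgals3bp*, which encodes a secreted glycoprotein, had the highest CPM of this role group but was below *Ifi27* per kilobase (19.8 against 32.6 CPM per kilobase). *Lgals3bp* was at 108.2 CPM in G8, 91.4 CPM in G11, 44.7 to 57.7 CPM in the remaining indole mice and 42.6 to 60.8 CPM in the remaining vehicle mice. *Ifi44* was at 7.06 CPM in G8 and 3.54 CPM in G11, and at no more than 1.28 CPM in the other 12 mice, where it had 4 to 24 reads. *Xaf1*, a pro-apoptotic gene, was at 11.8 CPM in G8, 5.93 CPM in G11, 1.31 to 2.94 CPM in the remaining indole mice and 1.83 to 3.57 CPM in the remaining vehicle mice. *Ifi47*, an interferon-inducible GTPase gene, was raised in G8 alone, with 24 reads there, 5 in G11 and 0 to 8 in the other 12 mice. *Ifi35* was at 33.9 CPM in G8, 26.9 CPM in G11 and 16.7 to 25.1 CPM in the other 12.

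**Figure D2:**
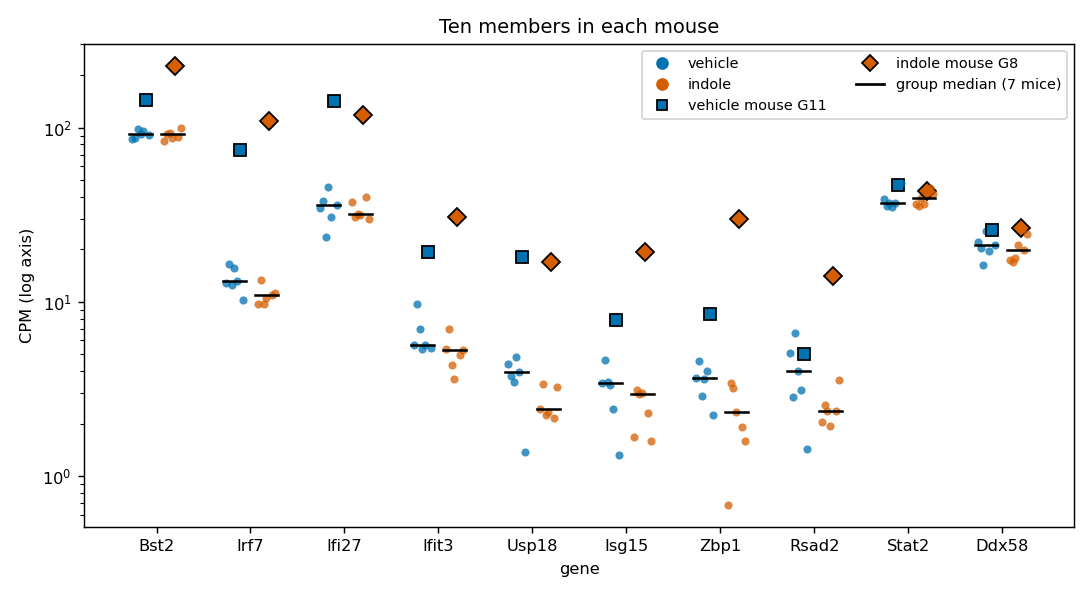
CPM on a log axis of 10 members in each of the 7 vehicle-treated mice (blue) and 7 indole-treated mice (orange), with G11 as an outlined square, G8 as an outlined diamond and group medians as bars. G8 and G11 lie far above the rest for *Irf7*, *Bst2*, *Ifi27*, *Ifit3*, *Usp18*, *Isg15* and *Zbp1*, G8 alone does so for *Rsad2*, and neither does for *Stat2*.

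G8 and G11 therefore shared most of the raised genes but not their proportions. G8 was above G11 in 27 of the 38 genes and below it in 11, with the widest gaps for *Zbp1* (1.70 on the log2(CPM + 1) scale), *Rsad2* (1.33) and *Isg15* (1.2). The IFIT proteins had a median log2 ratio of 2.25 in G8 and 1.22 in G11, and the OAS family 1.34 and 1.02. Families outside the 38 that interferon gamma also induces were given for comparison. The 16 interferon-inducible GTPases had a median log2 ratio of 2.27 in G8 and 0.66 in G11, and summed to 1949 CPM in G8, 536.8 CPM in G11 and 245.0 to 523.7 CPM in the other 12 mice. All 16 were higher in G8 than in G11. The 14 genes of MHC class I presentation had medians of 1.41 and 0.43 and were also all higher in G8. These are single libraries, so the differences between G8 and G11 have no replicate check. The median log2 ratio was 1.37 in G8 and 0.66 in G11 for the 11 tested genes with an ISRE core in their window, and 1.43 and 0.94 for the 15 with a window and no core.

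**Figure D3:**
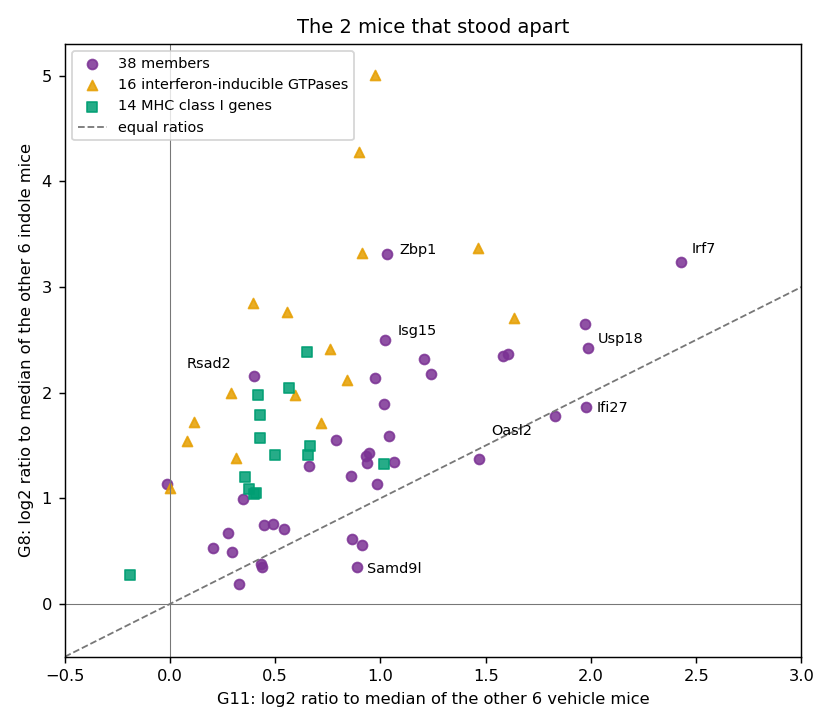
Each point is a gene, placed by its log2 ratio in G11 to the median of the 6 remaining vehicle mice (horizontal) and in G8 to that of the 6 remaining indole mice (vertical), both of CPM + 1. The 38 members reach as far right as *Irf7* at 2.43 and 3.24, and lie mostly above the line of equal ratios (medians 0.93 in G11 and 1.36 in G8). The GTPases (triangles, medians 0.66 and 2.27) and MHC class I genes (squares, 0.43 and 1.41) also lie mostly above it, with wider gaps between their medians.

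The question of the design was whether indole changed the expression of these genes, and the answer of the test depended on G8 and G11. With all 14 mice, 16 of the 34 genes tested were higher and 18 lower under indole. Their median log2 fold change was −0.00 and their range −0.40 to 0.64, with *Ifi44* at the top. *Ifi44* had too few reads for the test once G8 and G11 were both left out. None of the 34 had an unadjusted p below 0.05 by edgeR, against 3.81% of all genes tested (2.28% in the lower direction). DESeq2 called 5 of 38, against 3.19% of its genes, in a fit that replaces outlier counts. Without that replacement, genes with outlier counts get no p-value, and 0 of the 31 left were called, against 3.11%. The 2 counts are therefore not over the same genes and cannot be compared directly. Without G8, all 34 were lower, with a median of −0.40, and 14 had an unadjusted p below 0.05 (4.16% of all genes tested, 2.49% when counted in the lower direction). They were *Ifit1*, *Ifit3*, *Ifit3b*, *Ifih1*, *Zbp1*, *Irf9*, *Usp18*, *Herc6*, *Trim25*, *Parp12*, *Parp14*, *Rsad2*, *Cmpk2* and *Xaf1*, with log2 fold changes from −0.24 for *Ifih1* to −1.12 for *Usp18* in that fit. Without G11, 29 of 34 were higher with a median of 0.21, and none had an unadjusted p below 0.05, against 3.75% of all genes. Leaving out the highest mouse of 1 group moves these genes toward the other, so the direction of both fits is set in part by that choice.

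Without both mice, 26 of the 33 genes still tested were lower under indole and 7 higher. Their median log2 fold change was −0.17, against 0.01 over all genes tested, of which 48.0% were lower. An unadjusted p below 0.05 by edgeR was found for 8 of the 33, all lower, against 3.85% of all genes tested, or 2.3% in the lower direction. G8 and G11 were left out for standing apart on these same genes, which also narrows the spread within the groups. The count can therefore not be read as an excess over that share. *Oasl2*, *Ddx58*, *Stat2*, *Parp9*, *Dtx3l*, *Mx2*, *Eif2ak2*, *Bst2*, *Rtp4*, *Ifi27*, *Ifi35* and *Lgals3bp* all lay near 0 without both mice, from −0.09 for *Ddx58* to 0.05 for *Dtx3l*. *Isg15* was at −0.34 (SE 0.263) and *Rtp4* at −0.09 (SE 0.215). The 8 genes were *Ifit1* (unadjusted p of 0.0229), *Ifit3b* (0.0485), *Zbp1* (0.0322), *Irf7* (0.0227), *Irf9* (0.0224), *Parp12* (0.0188), *Parp14* (0.0423) and *Rsad2* (0.0385). No gene had an adjusted p below 0.05 in any of the 4 fits, and the smallest among the 34 genes was 0.998 with all mice. In the exact two-sided permutation test of mean log2(CPM + 1), the 24 genes taken by the naming rule gave p-values from 0.140 to 0.980 with 14 mice. With 12 mice they ran from 0.0346 for *Ifit3b* and *Parp12* to 0.948, with *Zbp1* at 0.0390 and *Ifit1* and *Irf7* at 0.0411 in the exact permutation test. Some of the 24 were named for their p in these fits and the genes move together across mice, so these p-values add no support, and they were not adjusted. The lowest mice were G5, G7 and G2 of the indole group, with median ranks of 3, 4 and 4 among the 12 mice, while G3, G12 and G14 at 8, 6.5 and 7 lay among the vehicle-treated mice (6 to 10).

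**Figure D4:**
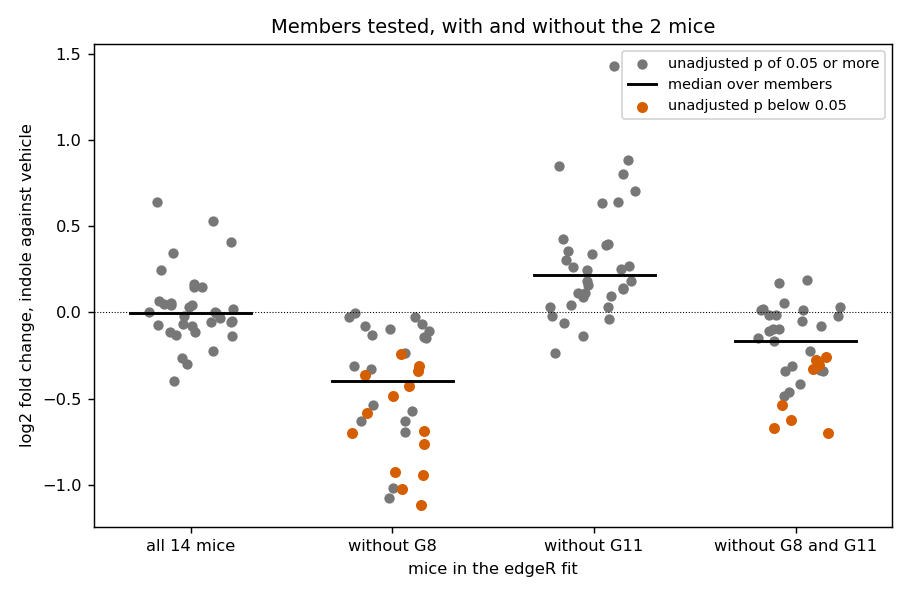
Log2 fold change of indole against vehicle from edgeR for each member tested, in fits with all 14 mice, without G8, without G11 and without both, with the median over members as a bar and genes of unadjusted p below 0.05 in orange. The medians are −0.00, −0.40, 0.21 and −0.17, and orange points appear only in the fits without G8 and without both.

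The interferon genes themselves were not detected, and most genes of the signalling pathway lay near the other mice in G8 and G11. Of 21 interferon ligand genes, 20 had no read in any mouse, *Ifnb1* and all interferon alpha genes among them, and *Ifng* had 1 read in G6. A count of 0 allows up to 3 reads, or 0.142 to 0.197 CPM by library, so ligand mRNA was not detectable at this depth. *Ifnar1* was at 16.4 CPM in G8 and 18.9 CPM in G11 and *Ifnar2* at 47.4 and 34.4 CPM, against 12.5 to 29.1 CPM and 32.5 to 46.5 CPM in the other 12 mice. *Jak1*, *Jak2* and *Tyk2* lay within the range of the other 12 in both mice. The 12 genes of sensor adaptors and kinases found in the table had median log2 ratios of 0.24 in G8 and 0.13 in G11. Of these 12, 10 passed the filter. Among those 10, *Sting1*, *Tlr3*, *Tlr7* and *Myd88* had their highest level of all 14 mice in G8, as did 9.18% of all genes tested. *Cgas* and *Tlr9*, which did not pass the filter, were also highest in G8. *Irf8*, a factor of myeloid cells, was at 7.06 CPM in G8 alone (1.87 to 4.34 CPM in the other 12, 2.99 CPM in G11). Of the 32 pathway genes tested with all mice, 12 were higher and 20 lower in indole-treated mice, and 3 had an unadjusted p below 0.05, all lower, against 2.28% of all genes in that direction. They were *Socs3*, a feedback inhibitor of cytokine receptors (log2 fold change −1.25, SE 0.412), *Ifnar1* (−0.28, SE 0.126) and *Irf2*, a repressor of interferon genes (−0.21, SE 0.0974). Without G8 and G11, the 3 were *Socs3*, *Irf2* and *Myd88*, an adaptor of Toll-like receptors, again all lower, against 2.3% of all genes in that direction. In that fit 25 of the 32 were lower, against 48.0% of all genes tested, and no adjusted p was below 0.05.

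Markers of Kupffer cells and macrophages were higher in G8, as the interferon genes were. Most markers of T and NK cells and of neutrophils and monocytes were too low for the test. The 15 markers of Kupffer cells and macrophages summed to 588.9 CPM in G8 and 319.5 CPM in G11, against 141.6 to 291.6 CPM in the other 12 mice. All 15 passed the filter. For 13 of them G8 was the highest of all 14 mice, as it was for 9.18% of all genes tested. Markers of T and NK cells, 16 in number, added up to 14.7 CPM in G8, 4.54 CPM in G11 and 1.70 to 5.6 CPM in the others. Only *Cd4*, also a macrophage gene, passed the filter, at 4.37 CPM in G8. *Gzmb* (2.89 CPM) and *Gzma* (2.35 CPM) came next in G8, and *Cd3e* and *Cd8b1* were at 0 there. The 11 markers of neutrophils and monocytes summed to 19.7 CPM in G8 and 12.2 CPM in G11, against 6.87 to 12 CPM in the other 12 mice. Of these 11 markers, 3 passed the filter. *Plac8* made up most of the sum (12.9 CPM in G8, with all other 12 mice at 3.91 to 6.96 CPM). *Mpo* and *Elane* were at 0 in G8, and *Ly6g* was at 0 in every mouse. Plasmacytoid dendritic cells are the chief makers of type I interferon, and their 9 markers besides *Bst2* summed to 9.55 CPM in G8 and 11.2 CPM in G11, within the 8.06 to 12.6 CPM of the other 12 mice. *Tcf4* made up most of that sum (7.33 CPM in G8 and 8.20 CPM in G11), *Ly6d* was higher in both mice (1.88 and 2.99 CPM against 0.352 to 1.32 CPM), and *Ccr9* and *Cox6a2* were at 0 in every mouse. B and plasma cell, stellate, bile duct, endothelial and hepatocyte sums of G8 lay within the range of the other 12 mice, as did its erythroid sum. The endothelial sum of G11, 81.7 CPM, was below the 102.7 to 189.7 CPM of the others. The part of these cells in the interferon gene levels was not tested, and in bulk tissue more cells of a type and more RNA per cell cannot be told apart. In the fit without G8 and G11, 9 of the 15 macrophage markers were lower in indole-treated mice, 0 had an unadjusted p below 0.05, and their median log2 fold change was −0.01. Erythroid markers did move, with 6 of 6 tested higher in indole-treated mice and 5 of them at an unadjusted p below 0.05 by edgeR, in each of the 4 fits. Over all genes, 196 of 12670 tested were higher at that threshold in the fit without G8 and G11. The median log2 fold change of the erythroid markers was 1.03 with all mice and 1.21 without G8 and G11. Their summed level ran from 208.3 to 1098 CPM in the 12 mice, and any relation to the interferon gene levels was not tested.

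**Figure D5:**
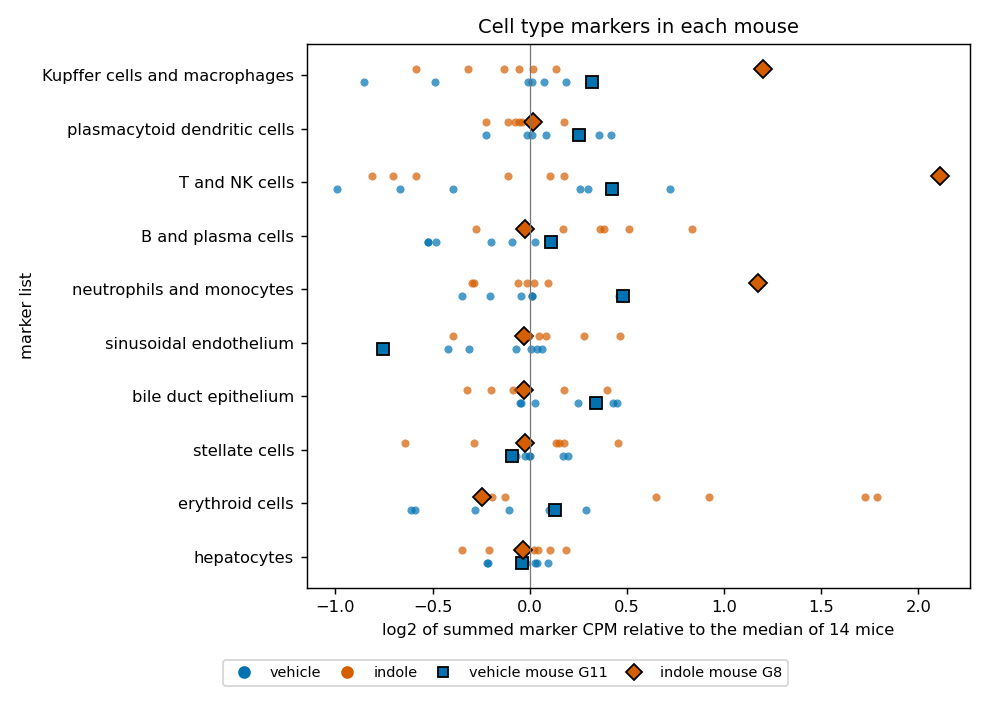
Summed CPM of each marker list in each mouse, as log2 relative to the median of the 14 mice, with vehicle in blue, indole in orange, G11 as an outlined square and G8 as an outlined diamond. G8 lies apart for macrophages, T and NK cells, and neutrophils and monocytes, and among the other mice for plasmacytoid dendritic cells and hepatocytes.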

How the data were processed

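Liver mRNA was sequenced from 14 TALLYHO mice as strand-specific polyA libraries. Per the labels and the study's methods, HISAT2 was the aligner and GRCm38 the genome. The authors deposited raw counts per gene from reads with a unique position, without normalisation. The counting tool is not given in the sources used here. Groups came from the sample labels. All 14 count columns were used, and gene coordinates are those of the table.

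Counts were tested with edgeR 4.0.16 in R 4.3.3 (TMM, filterByExpr, robust quasi-likelihood fit), with Benjamini–Hochberg adjustment over all genes tested. The fit was run with all mice, without G8, without G11 and without both. Standard errors are the log2 fold change divided by the square root of F. Single genes were compared by exact permutation of mean log2(CPM + 1). Ratios of a mouse to the median of its group's other mice used a pseudocount of 1 CPM. The procedure was tested on simulated data. Alternatives were RLE scaling, no filter, DESeq2 1.42.0 with and without replacement of outlier counts, limma 3.58.1 voom with sample weights, and leaving out each mouse.

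The members, lists and mice singled out were chosen with earlier results of these data known. In each role group the most abundant gene and that with the highest ratio in G8 were named with fold changes, besides any gene with an unadjusted p below 0.05 in 1 of the 4 fits. Promoter sequences are from RefSeq, on GRCm38.p6. Total counts per mouse were 15197498 to 21060376, so genes under 1 CPM rest on few reads. The level of 1 pathway gene is not reported here.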

Additional observations from a re-analysis of the deposited data

Results flagged for a closer look

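Single mice stood apart from the other 6 of their group in 33 of 76 comparisons of a member within a group. The measure was the gap between the extreme mouse and its nearest neighbour as a share of the group's range, and values over Dixon's 95% critical value are listed. The members are correlated and were chosen with G8 and G11 known, so these are not separate events and the count tests nothing. Chance alone flags about 1 in 20 groups. All 33 were the highest value of G8 or G11.

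In the indole group, the share of the range for G8 was 0.630 for *Ifit1*, 0.805 for *Ifit2*, 0.714 for *Ifit3*, 0.669 for *Ifit3b*, 0.632 for *Oasl2*, 0.700 for *Dhx58*, 0.668 for *Zbp1*, 0.876 for *Irf7*, 0.654 for *Irf9*, 0.776 for *Isg15*, 0.811 for *Usp18*, 0.609 for *Herc6*, 0.638 for *Parp12*, 0.726 for *Rsad2*, 0.657 for *Cmpk2*, 0.834 for *Bst2*, 0.711 for *Rtp4*, 0.798 for *Ifi27*, 0.583 for *Ifi35*, 0.669 for *Ifi44*, 0.653 for *Ifi47*, 0.687 for *Xaf1* and 0.713 for *Lgals3bp*. In the vehicle group, the share for G11 was 0.689 for *Ifit3b*, 0.701 for *Oas1g*, 0.580 for *Ifih1*, 0.766 for *Irf7*, 0.569 for *Usp18*, 0.750 for *Herc6*, 0.750 for *Bst2*, 0.659 for *Rtp4*, 0.633 for *Ifi27* and 0.681 for *Ifi44*. The median log2 ratio over the members stood apart as well, with 0.823 for G8 and 0.775 for G11. Of the cell marker sums, those of macrophages (0.596), T and NK cells (0.662) and neutrophils and monocytes (0.736) did so in G8. The cause was not tested.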

How the results depend on the processing

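The indole comparison depended on single mice. Leaving out each mouse in turn moved the members with an unadjusted p below 0.05 from 0 to between 0 and 14, those higher from 16 to between 0 and 29, and the median log2 fold change to between −0.40 and 0.21. Without G8 and G11, 8 were called and 7 were higher. DESeq2 called 5 of 38 (3.19% of all its genes) with outlier counts replaced. Without replacement it called 0 of the 31 that still had a p-value, since genes with outlier counts are then left without one. Limma voom with sample weights had 7 higher. The median was 0.0035 with RLE scaling, 0.0107 with no filter and 0.0060 in DESeq2 without replacement of outlier counts. With a pseudocount of 0.1 CPM the median log2 ratio was 1.78 in G8 and 1.04 in G11.

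Over the fits that leave out 1 mouse, the log2 fold change ran from −1.02 to 0.25 for *Ifit1*, −0.70 to 0.43 for *Ifit3*, −0.93 to 0.34 for *Ifit3b*, −0.31 to 0.18 for *Oasl1*, −0.63 to 0.64 for *Oasl2*, −0.24 to −0.04 for *Ifih1*, −0.94 to 0.80 for *Zbp1*, −1.02 to 0.89 for *Irf7*, −0.49 to 0.0284 for *Irf9*, −0.0329 to 0.0490 for *Stat2*, −0.63 to 0.64 for *Isg15*, −1.12 to 0.36 for *Usp18*, −0.43 to 0.14 for *Herc6*, −0.34 to −0.17 for *Trim25*, −0.0788 to 0.14 for *Parp9*, −0.31 to −0.05 for *Parp12*, −0.36 to −0.13 for *Parp14*, −0.69 to 0.19 for *Rsad2*, −0.76 to 0.30 for *Cmpk2*, −0.13 to 0.26 for *Bst2*, −0.70 to 0.85 for *Rtp4*, −0.54 to 1.43 for *Ifi44*, −0.58 to 0.40 for *Xaf1*, −0.24 to 0.16 for *Lgals3bp*. Without G8 and G11 the sign turned for *Ifit3* (−0.34), *Oasl2* (0.0311), *Zbp1* (−0.67), *Irf7* (−0.30), *Stat2* (0.0174), *Isg15* (−0.34), *Rsad2* (−0.63), *Cmpk2* (−0.48), *Bst2* (−0.0141), *Rtp4* (−0.0935) and *Xaf1* (−0.34). DESeq2 turned it for *Ifit3* (−0.66), *Zbp1* (−0.86), *Irf7* (−0.26), *Rtp4* (−0.0776), *Ifi44* (−0.55) and *Lgals3bp* (0.006), voom for *Ifit3* (−0.29), *Oasl2* (0.0156), *Zbp1* (−0.53), *Irf7* (−0.28), *Isg15* (−0.14), *Rsad2* (−0.32), *Cmpk2* (−0.22), *Rtp4* (−0.13) and *Xaf1* (−0.23), and RLE scaling for *Stat2* (0.0013) and *Lgals3bp* (0.0058), and DESeq2 without replacement for *Lgals3bp* (0.0060). Of 472 such values for single genes, 363 kept their direction and side of the threshold, 93 changed sign and 16 passed the threshold with the same sign. An unadjusted p below 0.05 was reached by 27 in all, 11 of them after a change of sign. The cause was not tested.

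No paired analysis was possible because the labels give no pairing between mice of the vehicle and indole groups. Genes under 1 CPM rest on few reads, and no adjusted p was below 0.05.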
